A study of Mus musculus with 2 samples.

Results

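The genes described here encode the digestive enzymes of the exocrine pancreas, the proteins packed with them into zymogen granules, and the transcription factors of the acinar cells that make them. They were 32 genes, looked up by symbol among 55536 annotated genes, and all 32 were found. They were measured in total RNA of adrenal gland. The animals were female mice of the F1 hybrid strain B6CASTF1/J, 4 days old, with no treatment and no engineered allele given in the labels. The libraries formed 1 group of 2 replicates, so there was no comparison between conditions. The label texts disagree on which animal gave replicate 2, and both samples share a donor record. They are called replicates 1 and 2, and nothing further fixes whether their spread is that between animals. The genes were chosen with the levels in these libraries known, from the difference between replicates 1 and 2. That difference is therefore given as a description, with no test.

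In the mouse, pancreatic acinar cells make the proteases of pancreatic juice as inactive precursors, together with lipases, amylase and ribonuclease, and release them from granules through ducts into the intestine. The adrenal gland, made of a steroid-producing cortex and a catecholamine-producing medulla, is not known as a source of these enzymes. In acinar cells the enzyme genes are switched on by PTF1, a complex of PTF1A, RBPJL and an E-protein, which reads an E-box beside a site for the RBPJ family.

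The library depth was 31838341 expected counts in replicate 1 and 32931868 in replicate 2. Expected counts are reads shared out among genes, and need not be whole. Levels are in TPM, the length-scaled share of transcripts, which divides a gene's counts by its effective length, and positions are on mouse build mm10. Ratios are replicate 1 over replicate 2 from counts scaled by TMM, a normalization on the bulk of genes. The log2 ratios, on which all fold limits were set, include a prior of 0.5 counts. Ratios printed as folds have no prior, so they lie above the log2 values for genes with few counts in replicate 2. Intervals of the ratios, also without the prior, are 95% exact (Clopper-Pearson) intervals for counting error only. A ratio to a gene at 0 is given as a lower bound against 3 counts in replicate 2, which is 9.11e-06% of that library. A gene was counted as higher at a ratio of at least 2-fold with a mean count of at least 100. This rule goes by size and involves no test. In bulk RNA, fewer cells of a type and less RNA per cell cannot be told apart.

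The adrenal label held against its markers. All 8 cortex genes listed, Star, Cyp11a1, Cyp21a1, Hsd3b1, Cyp11b1, Nr5a1, Mc2r and Scarb1, exceeded 1 TPM in both libraries, and their levels summed to 6276 TPM in replicate 1, against 6893 TPM in replicate 2. The 6 genes of the medulla summed to 1839 TPM in replicate 1, against 2150 TPM in replicate 2. None of these 14 genes differed 2-fold.

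Promoters are shown for 4 exocrine genes: Ctrb1, the highest member in replicate 1, Pnliprp1, the second highest, Cela2a, the third and without a count in replicate 2, and Cela1, the only member above 10 TPM in both libraries. Each runs from 250 bases before to 50 bases after the RefSeq start (build GRCm38.p6, the assembly of mm10), and is written 5′ to 3′ on the gene's own strand. Ctrb1 is chr8:111690961-111691260 on the minus strand, and Pnliprp1 is chr19:58728637-58728936 on the plus strand. Cela2a is chr4:141825956-141826255 and Cela1 is chr15:100687871-100688170, both on the minus strand. Capitals mark 3 motifs: the E-box CANNTG, the RBPJ core TGGGAA or its reverse complement TTCCCA, and the TATA box TATAAA on the gene's strand.
Ctrb1: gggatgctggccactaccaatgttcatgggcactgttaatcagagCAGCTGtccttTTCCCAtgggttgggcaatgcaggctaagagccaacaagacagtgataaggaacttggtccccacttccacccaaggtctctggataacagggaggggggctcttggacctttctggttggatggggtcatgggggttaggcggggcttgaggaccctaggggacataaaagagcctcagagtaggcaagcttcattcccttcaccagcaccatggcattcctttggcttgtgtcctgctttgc
Pnliprp1: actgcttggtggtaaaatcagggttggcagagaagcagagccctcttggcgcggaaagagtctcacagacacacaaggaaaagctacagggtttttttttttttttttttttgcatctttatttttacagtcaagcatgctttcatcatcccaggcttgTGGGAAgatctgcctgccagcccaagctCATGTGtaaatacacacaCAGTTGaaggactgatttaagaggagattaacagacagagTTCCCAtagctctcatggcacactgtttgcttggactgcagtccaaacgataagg
Cela2a: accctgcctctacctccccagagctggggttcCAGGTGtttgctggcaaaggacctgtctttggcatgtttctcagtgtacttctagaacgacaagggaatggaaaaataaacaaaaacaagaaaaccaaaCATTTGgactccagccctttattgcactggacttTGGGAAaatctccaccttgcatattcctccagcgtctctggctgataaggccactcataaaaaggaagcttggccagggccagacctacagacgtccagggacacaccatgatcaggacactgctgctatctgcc
Cela1: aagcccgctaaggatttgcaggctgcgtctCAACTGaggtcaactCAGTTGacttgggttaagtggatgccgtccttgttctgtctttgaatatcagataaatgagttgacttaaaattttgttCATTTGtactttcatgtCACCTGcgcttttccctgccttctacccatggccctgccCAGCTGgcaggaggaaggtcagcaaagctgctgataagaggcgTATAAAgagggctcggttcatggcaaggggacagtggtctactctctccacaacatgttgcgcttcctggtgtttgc
In Ctrb1 an E-box began 205 bases before the start and an RBPJ core 194 bases before it. Pnliprp1 held E-boxes 63 and 45 bases before the start and RBPJ cores at 91 and 5 bases. In Cela2a the E-boxes lay 218 and 119 bases before the start and the RBPJ core at 85. Cela1 held 5 E-boxes and a TATA box 27 bases before the start, with no RBPJ core in this window.

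RefSeq promoters matched 27 of the 32 genes; Clps, Ctrc, Zg16, Try5 and Try10 had none in the table. The RBPJ core, searched on both strands, was in 15 of the 27 (55.6%), against 25.6% of all 32841 promoters of that length. An E-box, which reads the same on both strands, was in 22 of 27 (81.5%), against 72.3% of all. Both motifs with at most 25 bases between them were found in 6 of 27 (22.2%), namely Ctrb1, Cpa1, Pnliprp1, Cel, Reg1 and Rbpjl, against 6.08% of all. A TATA box lay anywhere in the window in 8 of 27 (29.6%), against 8.32% of all, and between 50 and 20 bases before the start in 6 (22.2%), against 2.32%. No match to 1 motif overlapped a match to another in these 27. Some of the promoters belong to near-identical gene copies, so they are not independent, and a match is only a description of the letters.

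All 32 exocrine genes had counts in replicate 1, and 16 had none in replicate 2. Their levels summed to 6945 TPM in replicate 1, against 22.6 TPM in replicate 2. A second deposited quantification, whose TPM ran higher in general, gave 12977 TPM in replicate 1, against 43.9 TPM in replicate 2. As counts, they made up 0.683% of replicate 1 (217606 counts, interval 0.681% to 0.686%) and 0.00229% of replicate 2 (753 counts, interval 0.00213% to 0.00246%). A level of 1 TPM or more was reached by 31 genes in replicate 1 and by 2, Cela1 and Cpb1, in replicate 2. Levels of 100 TPM or more were seen for 14 genes in replicate 1 and for 0 in replicate 2. Of the 22015 nuclear protein-coding genes, the 100 most abundant included 5 of the exocrine genes in replicate 1 and 0 in replicate 2. The high values were thus all in replicate 1. There the 8 cortex genes had 383939 counts, more than the exocrine genes, although less TPM, which is per length.

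Most of what replicate 2 held came from 3 genes. Cela1, Cpb1 and Bhlha15 had 541, 121 and 37 counts there, and the other 29 genes together had 54 counts, none above 12. Without these 3, the sum was 6712 TPM in replicate 1, against 1.42 TPM in replicate 2.

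By the rule of size, 27 of the 32 genes passed the minimum mean count, and all 27 were higher in replicate 1. Over the whole set of genes tested, 1.71% of 13734 genes were higher in replicate 1 and 1.5% were higher in replicate 2. Because the genes were chosen on this difference, and 25 of the 27 had fewer than 100 counts in replicate 2 and so passed through replicate 1, nothing is read from that count. The 5 genes under the minimum, Cela3a, Pnlip, Pla2g1b, Ptf1a and Bhlha15, also had more counts in replicate 1. The median log2 ratio over the 32 was 11.26, or 9.89 with genes at 0 set to their bound, against −0.02 over all genes tested.

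**Figure D1:**
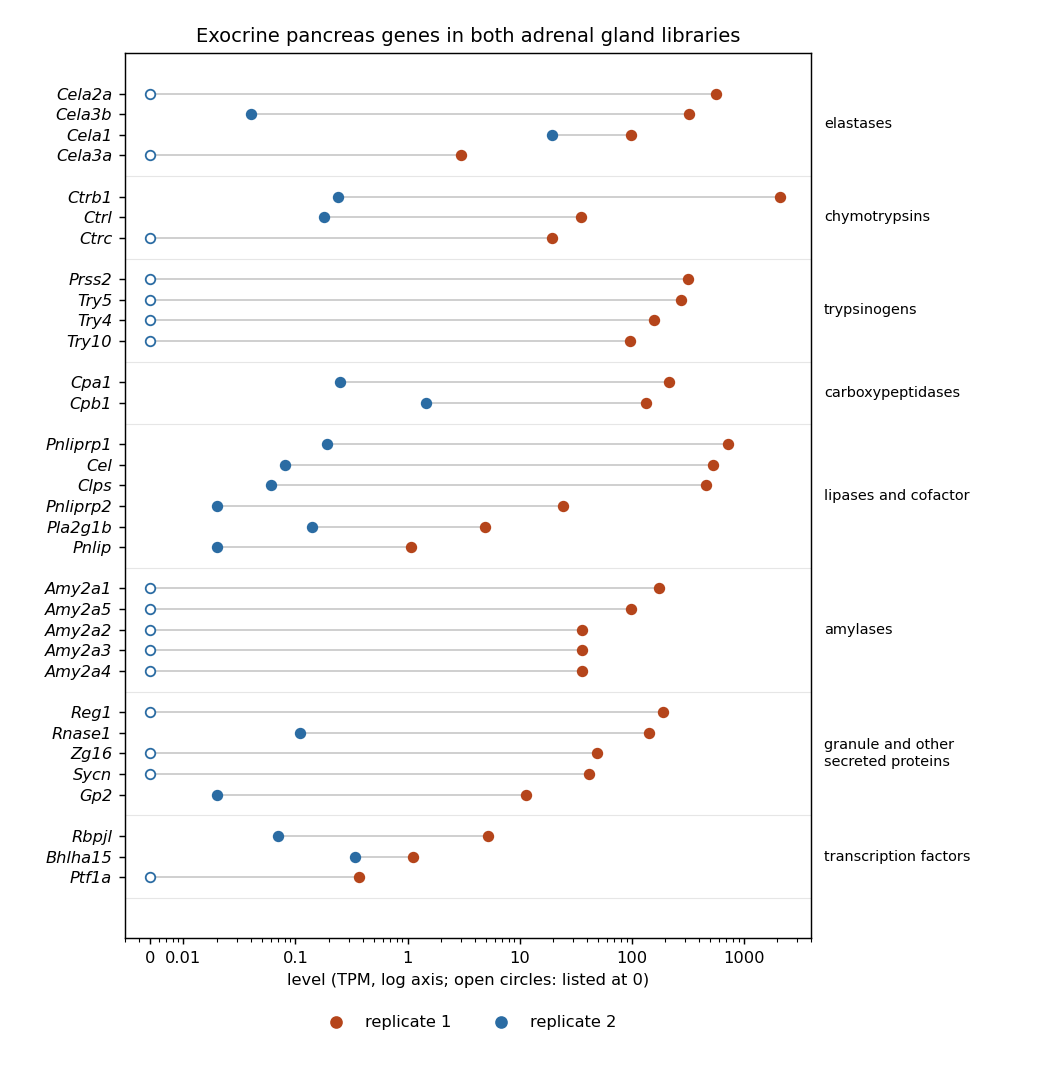
Level of each of the 32 exocrine genes in replicate 1 and replicate 2 (TPM, log axis), grouped by protein family; open circles stand for genes listed at 0. Every gene lay higher in replicate 1, and Cela1, at 98.0 TPM in replicate 1, against 19.4 TPM in replicate 2, had the highest level in replicate 2.

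Replicate 1 was dominated by a few genes. Ctrb1 alone held 30.6% of the exocrine TPM, the 3 highest genes held 49.1% and the 10 highest 82.6%. By family, chymotrypsins held 31.4%, lipases with their cofactor 25.2%, elastases 14.3%, trypsinogens 12.2%, the granule and other secreted proteins 6.25%, amylases 5.50% and carboxypeptidases 5.06%. The 3 transcription factors held 0.0963%. These shares are per length. As shares of counts, lipases came first with 30.0%, chymotrypsins held 24.0%, amylases 12.3%, elastases 10.9% and carboxypeptidases 9.40%, so the order of the families depends on the scale.

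**Figure D2:**
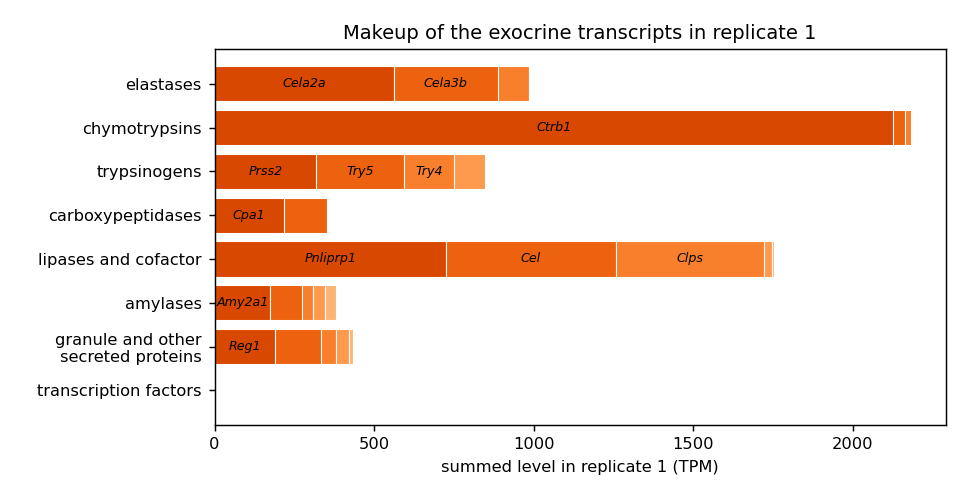
Summed level of each family in replicate 1 (TPM), with a segment for each gene and the names of the larger segments. Chymotrypsins reached 2182 TPM, nearly all of it Ctrb1, while the transcription factors, at 6.69 TPM, are too low to be seen on this axis.

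Chymotrypsins are proteases that cut after large hydrophobic residues. Ctrb1, chymotrypsinogen B, stood at 2127 TPM in replicate 1, against 0.24 TPM in replicate 2, or 51016 and 6 counts. It ranked 3 among nuclear protein-coding genes of replicate 1. Its ratio was 8525-fold (3917 to 23232), with the width set by the 6 counts in replicate 2, where the second deposited quantification gave 12 counts, and there the log2 ratio was 11.80 in place of 12.94. Ctrl, a chymotrypsin-like protease, had 35.3 TPM in replicate 1, against 0.18 TPM in replicate 2, from 840 and 4 counts, a ratio of 211-fold (81.9 to 775). Ctrc, chymotrypsin C, which in humans degrades trypsin, had 19.6 TPM and 405 counts in replicate 1, against no count in replicate 2, at least 135-fold higher. So within this family Ctrb1 exceeded its relatives by far in replicate 1, and all of its members were at or near 0 in replicate 2. Ctrb1 (ENSMUSG00000031957.6) spans 111686519 to 111691010 on chromosome 8 (minus strand), and Ctrl spans 105932003 to 105933862 on the same strand.

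Elastases cut beside small residues, and the family included the members most different from each other between the libraries. Cela2a had 561 TPM and 12436 counts in replicate 1, against no count in replicate 2, at least 4156-fold higher. Cela3b had 328 TPM in replicate 1, against 0.04 TPM in replicate 2, from 8347 and 1 counts, a ratio of 8369-fold with a counting interval of 1502 to 330570. The second quantification gave Cela3b 5 counts in replicate 2. Cela3a, its neighbour on chromosome 4, had 2.97 TPM and 78.5 counts in replicate 1 and none in replicate 2, at least 26.2-fold higher. Cela3a and Cela3b were identical at 94.1% of aligned coding bases, and the second quantification gave 0.989 and 0.976 times their first counts. The other elastase pairs were 62.1% to 64.9% identical.

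Cela1 was the member with the most RNA in replicate 2. It is a pancreatic elastase gene that is also known from tissues outside the pancreas. It had 98.0 TPM in replicate 1, against 19.4 TPM in replicate 2, from 2781 and 541 counts. The ratio of 5.15-fold (4.70 to 5.66) was, with that of Bhlha15, among the smallest of the fitted ratios. Cela1 (ENSMUSG00000023031.8) spans 100674421 to 100687921 on chromosome 15 (minus strand). Its transcript Cela1-201 held 84.9% of the gene's TPM in replicate 1 and 77.5% in replicate 2, so the same transcript led in both libraries.

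Cela2a and Ctrc overlap on the same strand of chromosome 4. Cela2a spans 141814962 to 141826160 and Ctrc 141814962 to 141846359. Reads in the shared stretch cannot be told apart by strand. The second quantification gave Ctrc 0.965 times its first count, also far below Cela2a. Both quantifications divide the same reads, so their closeness does not show that the division is right. Casp9, which overlaps both on the opposite strand, had 958 counts in replicate 1 and 983 counts in replicate 2.

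Trypsinogens are the precursors of trypsin, which activates the other pancreatic proteases. Prss2 had 318 TPM in replicate 1, from 7020 counts, and Try5 had 275 TPM, from 5936 counts. Try4 stood at 158 TPM, from 3411 counts, and Try10 at 95.8 TPM, from 2245 counts. None of these 4 genes had a count in replicate 2, so the bound on the ratio was 2346-fold for Prss2, 1984-fold for Try5, 1140-fold for Try4 and 750-fold for Try10. All lie on chromosome 6, from Try4, which starts at 41302269, to Prss2, which ends at 41525079.

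The trypsinogen copies resemble each other. Between pairs, 90.1% to 97.4% of aligned coding bases were identical. The first 75 coding bases, which span the signal peptide, the activation peptide and the start of mature trypsin, are shown from the annotated transcripts (GENCODE M21, mm10 chromosome 6), with capitals where a gene has another base than Prss2.
Prss2: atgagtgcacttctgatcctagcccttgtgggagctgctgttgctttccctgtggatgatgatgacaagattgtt
Try4: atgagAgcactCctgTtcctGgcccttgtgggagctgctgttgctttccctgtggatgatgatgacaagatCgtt
Try5: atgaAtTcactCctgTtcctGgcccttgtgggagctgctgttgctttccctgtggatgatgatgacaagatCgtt
Try10: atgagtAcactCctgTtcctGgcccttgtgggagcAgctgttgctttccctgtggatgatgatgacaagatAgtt
Of these 75 bases 67 were the same in all 4 genes, with a longest shared run of 35 bases, and Try4, Try5 and Try10 differed from Prss2 at 5, 6 and 6 bases. The second deposited quantification, made from the read files by transcript, gave the family 12563 counts in replicate 1, against 18611 in the first. It gave Try4 0.445 times, Try10 0.591 times, Prss2 0.615 times and Try5 0.911 times the first count. The order of Prss2 and Try5 also turned: the second gave Prss2 420 TPM and Try5 546 TPM. TPM values of the second quantification ran higher for genes in general, with a median of 1.83 times the first. In replicate 2 it gave Try5 2 counts, Try10 1 count, and Prss2 and Try4 none.

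Trypsinogen genes outside the 32 carried counts too. Prss1 had 204 TPM in replicate 1, against 0.09 TPM in replicate 2, from 4430 and 2 counts, and Prss3 had 130 TPM and 2901 counts in replicate 1, against no count in replicate 2. The 4 genes named above were therefore only some of the trypsinogen RNA.

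Carboxypeptidases remove residues from the end of peptides. Cpa1, which takes off hydrophobic residues, had 217 TPM in replicate 1, against 0.25 TPM in replicate 2, from 9904 and 12 counts, a ratio of 828-fold (474 to 1602). Cpb1, which takes off basic residues, had 134 TPM in replicate 1, against 1.45 TPM in replicate 2, from 10548 and 121 counts, a ratio of 87.4-fold (73.1 to 105). The 2 genes had similar counts in replicate 1, while in replicate 2 Cpb1 had the higher count, and their intervals of the ratio did not overlap. Cpa1 lies on chromosome 6 from 30639218 to 30645363 and Cpb1 on chromosome 3 from 20248264 to 20275733.

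Among the genes for fat digestion, Pnliprp1 led. This lipase relative has little activity on triglycerides. It had 725 TPM in replicate 1, against 0.19 TPM in replicate 2, from 30929 and 8 counts, a ratio of 3876-fold (1967 to 8980). Cel, the bile salt-activated lipase, had 534 TPM in replicate 1, against 0.08 TPM in replicate 2, from 25808 and 5 counts, a ratio of 5175-fold (2217 to 15941). Clps, colipase, the cofactor that anchors pancreatic lipase to fat droplets, had 464 TPM in replicate 1, against 0.06 TPM in replicate 2, from 7293 and 1 counts, a ratio of 7313-fold (1312 to 288868). These 3 ranked 24, 44 and 67 among nuclear protein-coding genes of replicate 1.

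The remaining lipid genes were lower. Pnliprp2, a lipase for which galactolipids and phospholipids are also substrates, had 24.2 TPM in replicate 1, against 0.02 TPM in replicate 2, from 1098 and 1 counts, a ratio of 1101-fold (197 to 43524). Pla2g1b, the pancreatic phospholipase A2, had 4.89 TPM in replicate 1, against 0.14 TPM in replicate 2, from 69 and 2 counts, a ratio of 34.6-fold (9.22 to 291). Pnlip, pancreatic triglyceride lipase itself, had only 1.08 TPM in replicate 1, against 0.02 TPM in replicate 2, from 46 and 1 counts, a ratio of 46.1-fold (7.88 to 1861). In rodents Pnlip is known to rise around weaning, later than its relatives. The 3 neighbouring genes Pnlip, Pnliprp1 and Pnliprp2 lie in this order between 58652498 and 58777534 of chromosome 19 (plus strand) and shared 67.2% to 70.2% of aligned coding bases. In replicate 1 Pnliprp1 was thus far above its direct neighbours on both sides.

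Pancreatic amylases cut starch. Amy2a1 had 174 TPM and 4249 counts in replicate 1, Amy2a5 had 98.6 TPM and 10472 counts, and Amy2a2, Amy2a3 and Amy2a4 had 36.3 TPM and 4047 counts each. In the first quantification no amylase of the 32 had a count in replicate 2, and Amy2a5 was at least 3500-fold, Amy2a1 at least 1420-fold and the other 3 at least 1353-fold higher in replicate 1 by the first quantification. The bound does not hold for those 3 in the second, which gave each 4.46 counts in replicate 2 and a log2 ratio of 9.41. The family summed to 382 TPM and 26862 counts in replicate 1.

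How these counts divide among the amylase copies is uncertain. Aligned coding bases were 100% identical in all 10 pairs of the annotated sequences (735 coding bases in Amy2a1, 1524 in the others), and the whole transcripts of Amy2a2, Amy2a3 and Amy2a4 were identical. The equal values of those 3 genes are thus a division of shared reads. The deposited credible intervals in replicate 1 were 23.4 to 70.9 TPM for Amy2a2, 12.3 to 90.1 TPM for Amy2a3, 8.79 to 78.5 TPM for Amy2a4 and 47.7 to 93.7 TPM for Amy2a5. They overlap and do not by themselves settle the order of these 4 genes. Amy2a2, Amy2a3 and Amy2a4, with identical transcripts, cannot be put in order. Amy2a5 was above them in both quantifications, in the second with 165 TPM against 47.8 TPM for each of the 3. Amy2a5's own TPM lies above its interval, as did the TPM of Ctrb1, Cela3b, Cpa1, Pnliprp1 and Cel. The posterior SD of the count was 32.1% for Amy2a2, 49.4% for Amy2a3, 54.7% for Amy2a4 and 14.4% for Amy2a5, the 4 members above 5%, while it was 0 for 19 members. The second quantification gave the 5 genes 27797 counts in replicate 1. They lie on the minus strand of chromosome 3, from Amy2a5, which starts at 113247178, to Amy2a1, which ends at 113532428.

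Amylase genes outside the 32 also had counts. Amy2b, annotated as an unprocessed pseudogene, had 235 TPM in replicate 1, against 0.02 TPM in replicate 2, from 10705 and 1 counts, more TPM than any amylase of the 32 in the first quantification. In the second Amy2a1 was above it, with 482 TPM against 321 TPM for Amy2b. Amy1, the amylase of salivary gland and liver, had 14.2 TPM in replicate 1, against 2.04 TPM in replicate 2, from 733 and 107 counts, a ratio of 6.85-fold, or a log2 ratio of 2.77, which was 1.66 in the second quantification. Reads shared between Amy1 and the pancreatic copies can move either value.

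**Figure D3:**
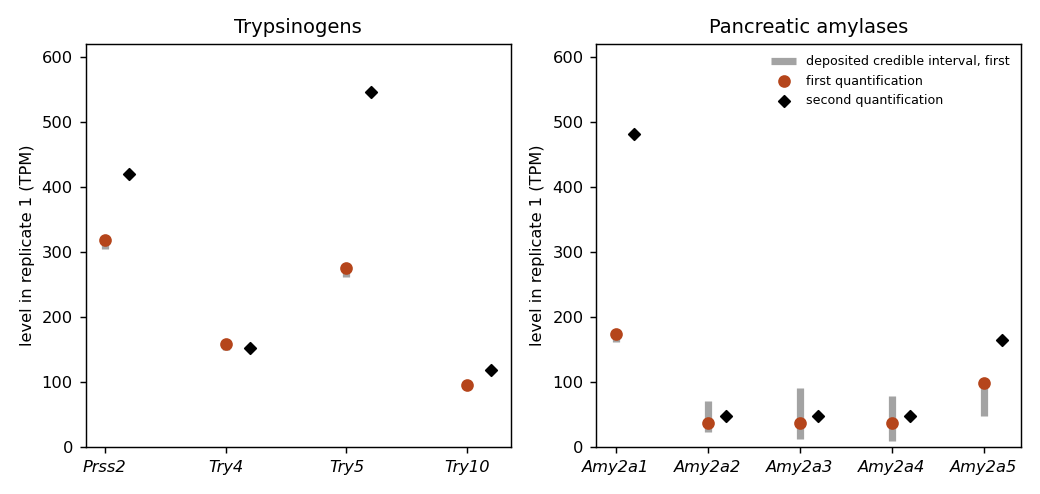
Level in replicate 1 (TPM) of the trypsinogens and of the pancreatic amylases: circles for the first quantification with its deposited credible interval as a bar, diamonds for the second. The bars are short for the trypsinogens, of which the second quantification puts Try5 above Prss2, and long for Amy2a2, Amy2a3 and Amy2a4, which stood at 36.3 TPM each.

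Among the secreted proteins that are not digestive proteases, lipases or amylases, Reg1 was highest. Reg1, a secreted lectin-like protein of pancreatic juice, had 189 TPM and 3893 counts in replicate 1, against no count in replicate 2, at least 1301-fold higher. Rnase1, the pancreatic ribonuclease, had 143 TPM in replicate 1, against 0.11 TPM in replicate 2, from 3937 and 3 counts, a ratio of 1316-fold (450 to 6383). Zg16, a lectin of the zymogen granule, had 48.8 TPM and 817 counts in replicate 1, against no count in replicate 2, at least 273-fold higher. Thus 1 of these 3 had any count in replicate 2.

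Membrane-associated proteins of the granule were lower. Sycn, syncollin, had 41.7 TPM and 586 counts in replicate 1, against no count in replicate 2, at least 196-fold higher. Gp2, the main glycoprotein of the granule membrane, had 11.3 TPM in replicate 1, against 0.02 TPM in replicate 2, from 658 and 1 counts, a ratio of 660-fold (118 to 26098). Sycn overlaps Samd4b on the opposite strand, which had 2333 counts in replicate 1 and 2408 counts in replicate 2. The libraries were stranded, but whether the counting used strand was not given in the sources used here, so overlapping pairs stay uncertain.

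The transcription factors were the lowest family. Rbpjl, the RBPJ-family subunit of PTF1, had 5.21 TPM in replicate 1, against 0.07 TPM in replicate 2, from 512 and 9 counts, a ratio of 57.0-fold (29.8 to 125), and the second quantification gave it 19.1 counts in replicate 2. Bhlha15, also called MIST1, which shapes the granule apparatus of several secretory cell types, had 1.11 TPM in replicate 1, against 0.34 TPM in replicate 2, from 116 and 37 counts. Its ratio of 3.14-fold (2.15 to 4.68) was the lowest fitted ratio of the 32. Ptf1a, the acinar subunit of PTF1, had 0.37 TPM and 16 counts in replicate 1 and none in replicate 2, at least 5.35-fold higher, and was the only member below 1 TPM in replicate 1. So few counts leave its level loosely fixed, and a count of 0 in replicate 2 does not show that it was absent.

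The forms of RNA differed among the genes in replicate 1. Of the 32, 14 have 1 annotated transcript, and 6 had over 5% of their TPM on transcripts annotated as other than protein-coding, nonsense-mediated decay included. These were Rbpjl with 55.9%, Ctrc with 54.3%, Cela2a with 41.8%, Cel with 25.7%, Pnliprp1 with 12.1% and Amy2a5 with 5.20%. The second quantification gave 63.1%, 72.3%, 19.2%, 34.9%, 22.3% and 0.399% in the same order. By the second, 9 genes passed 5%, among them Cpb1 with 30.8%, Cela1 with 28.4%, Ctrl with 26.4% and Cpa1 with 6.76%, against 2.67%, 1.37%, 3.34% and 0.428% in the first, so the shares are loosely fixed. In Ctrc, the nonsense-mediated decay transcript Ctrc-205 made up 27.3% in the first. In Rbpjl the retained-intron transcript Rbpjl-203 held 41.3% of TPM and the coding transcript Rbpjl-201 44.1% in the first quantification, an order that turned in the second, with 49.5% and 36.9%. In Cela2a the retained-intron transcript Cela2a-202 held 41.6% and the coding transcript Cela2a-201 58.2% in the first, against 18.9% and 80.8% in the second. These libraries were depleted of ribosomal RNA, a design that also keeps unspliced RNA.

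The 2 quantifications were close for most of the genes. In replicate 1 the second count lay between 0.8 and 1.25 times the first for 25 of the 32. The exceptions were Try4, Try10, Prss2, Sycn at 0.623, Pla2g1b at 0.638, Clps at 0.757 and Amy2a1 at 1.35. In replicate 2, 10 of the 16 genes without a count in the first quantification had none in the second either, and the others had at most 4.46.

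**Figure D4:**
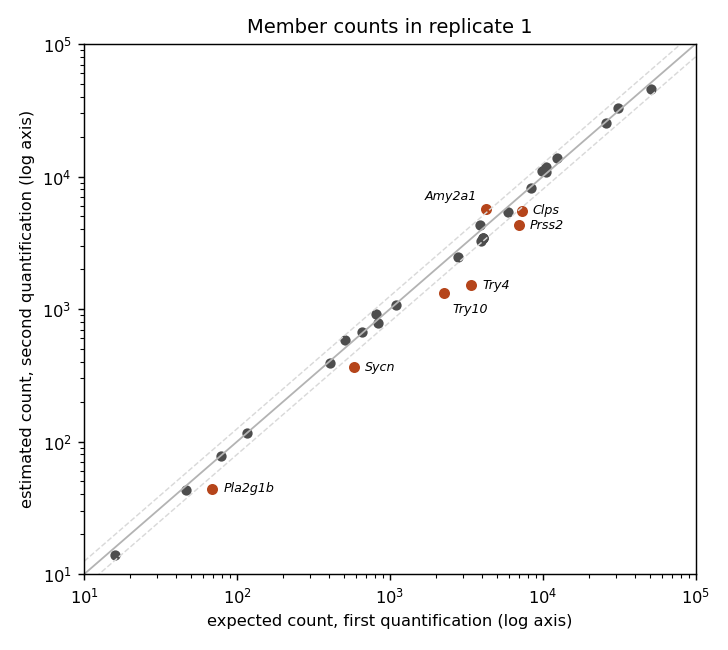
Count of each exocrine gene in replicate 1 in the first quantification (x) and in the second (y), both on log axes; the solid line marks equal counts and the dashed lines 0.8 and 1.25 times. Of the 32 genes 25 lie within the dashed lines, and the 7 outside are named, among them 3 trypsinogens.

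Other pancreatic genes were higher in replicate 1 as well. These lists were also chosen with results known, and the shares over all genes tested are those given above. From a list of 22 further acinar genes, 11 passed the minimum count, 9 were higher in replicate 1 and 0 in replicate 2. The levels of the 22 summed to 520 TPM in replicate 1, against 7.01 TPM in replicate 2, where 10 had no count. Nr5a2 and Gata4, both also known from steroid-producing tissue, were the 2 that were not called, with 178 and 142 counts in replicate 1 against 118 and 145 counts in replicate 2. Of 14 genes of the hormone-producing islets, 5 passed the minimum count and all 5 were higher in replicate 1, but all 5 had fewer than 100 counts in replicate 2 and so passed through replicate 1. Ins2, an insulin gene, had 387 TPM in replicate 1 and 0 in replicate 2, Ins1, the other insulin gene, had 109 TPM and 0, and Gcg, glucagon, had 85.7 TPM and 0. The islet list summed to 637 TPM in replicate 1, against 3.01 TPM in replicate 2, where 8 of its 14 genes had no count. The duct genes separated less: the list of 9 summed to 49.2 TPM in replicate 1, against 19.6 TPM in replicate 2. Spp1, a secreted phosphoprotein gene, had 782 counts in replicate 1 and 48 counts in replicate 2, while Krt19, a keratin of duct cells, had 172 counts in replicate 1 and 316 counts in replicate 2.

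Markers of neighbouring organs moved with the exocrine genes in part. Of 10 kidney genes 8 passed the minimum count and all 8 were higher in replicate 1, and the list summed to 103 TPM in replicate 1, against 10.9 TPM in replicate 2. The median log2 ratio of those 8 was 3.32. All 8 liver genes were higher in replicate 2, with 128 TPM in replicate 1, against 565 TPM in replicate 2, and a median log2 ratio of −2.17. The fat list summed to 321 TPM in replicate 1, against 333 TPM in replicate 2. Of its 6 genes 4 passed the minimum count, and 0 were called. Of 7 stomach genes 6 were at 0 in both libraries. In the intestine list Vil1, a microvillus protein gene also known from kidney, was the gene called, and in the salivary list it was Amy1. Each was the only gene of its list past the minimum count, and 4 of the 8 salivary genes were at 0 in both libraries. The spleen and lymphoid list had 4.02 TPM in replicate 1, against 6.65 TPM in replicate 2. Only 1 of its 7 genes passed the minimum count, and it was not called. The part that tissue from any of these organs had in the exocrine levels was not tested.

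**Figure D5:**
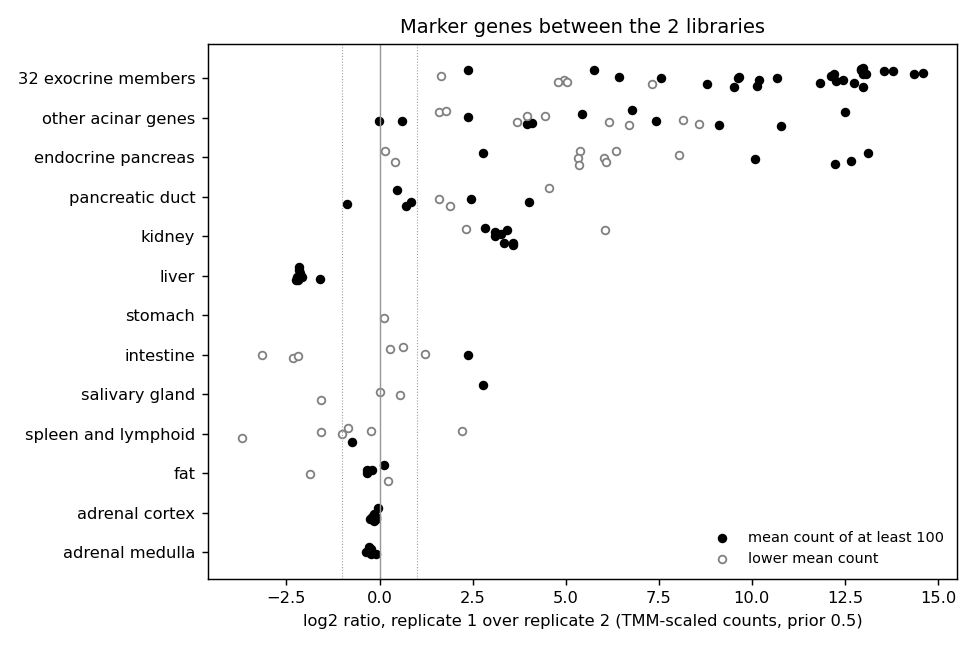
Log2 ratio of replicate 1 over replicate 2 for each gene of the exocrine set and of 12 marker lists (TMM-scaled counts, prior of 0.5); filled points have a mean count of at least 100, open points a lower one, dotted lines mark a 2-fold ratio, and genes without a count in either library are not drawn. The exocrine, other acinar and islet genes reach the highest ratios, kidney genes lie near a median of 3.32, liver genes near −2.17, and the adrenal lists near 0.

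Across the transcriptome such large ratios were rare. Of 12870 protein-coding genes at the minimum count, 41 (0.319%) were at least 64-fold higher in replicate 1. The 32 exocrine genes gave 25 of these, which follows from how they were chosen. A further 9 were in the marker lists, 5 in the acinar list and 4 in the islet list, and 7 were in neither. In the other direction 1 gene was at least 64-fold higher in replicate 2.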

How the data were processed

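The 2 total RNA-seq libraries of adrenal gland (300 ng of RNA, ribosomal RNA depleted, stranded, with ERCC spike-ins, per the labels) were used as 1 group of 2 replicates. Per the file headers, the deposited gene tables gave expected counts, TPM and posterior mean TPM with credible bounds for 81881 sequences. A second deposited transcript table gave estimated counts and TPM and was summed to genes here. Assembly mm10 and annotation M21 are those in the authors' notes. The names of aligner and quantifier were not given in the sources used here. Reads shared by gene copies were divided by the authors' quantifier, which bears on the trypsinogens and amylases.

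The 32 genes and all marker lists were chosen with earlier results of these data known. The text names all 32, the highest 4 of each list and its genes past the rule of size where they bear on a result, and other protein-coding genes at least 64-fold higher in replicate 1. Relatives and overlapping genes of the 32 were named after their values were seen. Results for some genes are not reported here. TMM factors were 1.02 and 0.985. Counts were rounded for DESeq2 and for intervals. Spike-ins took 0.900% of replicate 1 and 0.923% of replicate 2. The floor for 0 counts, set at 3 counts, was 9.42e-06% of replicate 1, against 9.11e-06% of replicate 2. Reads carry no molecular identifiers, so these floors and all intervals are for counting error alone. Coding bases were aligned globally from GENCODE transcripts, and pairs aligned over less than 80% of the shorter were dropped. Alternatives were DESeq2, spike-in and TPM scaling, another prior, other minima and the second quantification. The scaling was checked on simulated data with counting error alone. This check does not cover spread between libraries or changed genes at 0 in 1 library. Tools were Python 3.11.15, pandas 2.3.3, scipy 1.17.1, biopython 1.88, R 4.3.3, edgeR 4.0.16 and DESeq2 1.42.0.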

Additional observations from a re-analysis of the deposited data

How the results depend on the processing

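No paired analysis was possible because the 2 libraries form 1 group, and with 2 replicates in 1 group there was no test. No log2 ratio between the replicates changed sign in the alternatives run, but some orders of level turned, as given here and beside the genes. The members at 1 TPM or more in both replicates were 2. They were 2 without replicate 1, 31 without replicate 2, and 9 at a minimum of 0.1 TPM. Summed member TPM was 12977 in replicate 1 and 43.9 in replicate 2 by the second quantification, and 6800 in replicate 1 and 26.7 in replicate 2 by posterior mean TPM. The chymotrypsin share of 31.4% was 24.0% by counts, below the lipases at 30.0%, and 31.0% by the second quantification. Marker genes past 2-fold were 34, and 65 with no filter on low counts. The members past 2-fold stayed at 27 under each scaling, the second quantification and a 4-fold limit, and were 31 at a mean count of 10 and 32 with no filter. The median member log2 ratio ranged from 9.54 by the second quantification to 11.83 by TPM. Among single genes, 6 moved beyond their counting interval, all in the second quantification: Ctrb1 to 11.80, Cela3b to 10.50, Amy2a2, Amy2a3 and Amy2a4 to 9.41 each, and Rbpjl to 4.88 (log2). Genes at or near 0 in replicate 2 are limited by depth, and their ratios rest on a few counts.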

Other observations

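Outside the 32 genes and the marker lists, 7 protein-coding genes were at least 64-fold higher in replicate 1 at the minimum count. This split goes by list membership and does not say whether a gene is exocrine. The highest was 2210010C04Rik, with 128 TPM in replicate 1, against 0.02 TPM in replicate 2, from 8035 and 1 counts. Gm10334 had 118 TPM and 2813 counts in replicate 1, and Gm5771 had 104 TPM and 2231 counts, with no count of either in replicate 2. Dmbt1, a secreted mucin-like scavenger receptor gene, had 38.3 TPM in replicate 1, against 0.02 TPM in replicate 2, from 6123 and 3 counts. The others were 1810009J06Rik at 13.7 TPM, Gm2663 at 12.9 TPM and Gm20388 at 3.13 TPM in replicate 1. Gm5771 and Gm10334 start at 41392356 and 41442216 of chromosome 6, between Try4 and Prss2. On the same chromosome 1810009J06Rik, Gm2663 and 2210010C04Rik start at 40964754, 40995830 and 41030268, before Try4. Gm20388 was not far apart in the second quantification, with 327 counts in replicate 1 and 254 counts in replicate 2 (log2 ratio 0.33), and its posterior SD was 64.1% of the first count.

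The islet transcription factor genes varied. Mafa, a factor of insulin-producing cells, had 95 counts in replicate 1 and 71 counts in replicate 2. Pdx1, a factor of the developing pancreas and of insulin-producing cells, had 40 counts in replicate 1 and none in replicate 2. Both genes lay below the minimum count and were chosen after their values were seen.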
